A study of Homo sapiens with 4 samples.

Results

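The genes described here encode the machinery that shortens, uncaps and degrades messenger RNA. They are a list of 38 genes, named by function, out of 20033 protein-coding genes in the annotation: 18 of deadenylation, 8 of decapping and 5′ decay, 9 of nonsense-mediated decay (NMD) and 3 of the ZFP36 family that binds AU-rich elements (AREs). The rule names genes and uses no peak values, but the list was chosen with earlier results of these data known. All 38 symbols were found in GENCODE version 44 on hg38. The study applied meRIP-seq, immunoprecipitation of RNA with an antibody against N6-methyladenosine (m6A), to OE-19, an established cell line of adenocarcinoma of the esophagogastric junction grown in RPMI1640 with fetal bovine serum. The 4 samples were 2 m6A IP samples and 2 inputs taken without antibody, all of OE-19 cells in 1 condition, so the design holds no contrast between treatments. The labels do not say whether the 2 replicates were separate cultures, although the study calls them biological replicates. Results come from the peak list of each IP sample; peak lists of the inputs were not analysed here.

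Most mRNAs lose their poly(A) tail first, through the PAN2-PAN3 and CCR4-NOT deadenylase complexes. The cap is then removed by the DCP2 decapping enzyme and its activators, and the body is degraded from the 5′ end by XRN1. NMD uses the UPF and SMG proteins to route transcripts with a premature stop codon into the same pathway, and ZFP36 proteins recruit CCR4-NOT to AU-rich 3′ UTRs. m6A itself can promote decay, since YTHDF readers recruit CCR4-NOT, so the CCR4-NOT genes of the list encode effectors of m6A-dependent turnover. Not every reader acts this way: the study attributes to IGF2BP3 a stabilizing effect on its m6A-modified targets. All genes of the list are here examined for m6A peaks on their own transcripts. m6A is deposited mostly at DRACH sequences (where D means any base but C, R means a purine, and H means any base but G), with GGAC as a frequent core.

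The lists held 24607 peaks in replicate 1 and 19318 in replicate 2. Each peak has a summit, the base of highest signal, and a fold enrichment, the ratio of signal at the summit to the local background of the peak caller. A summit inside an exon is called exonic. Read numbers are not part of the lists, which leaves the depth behind each value unknown, and the weakest peaks of replicates 1 and 2 had q values of 0.0491 and 0.0497. RNA level was not measured here, so the identity of the line was not checked against marker genes, and a transcript without a peak cannot be told apart from one present at too low a level to give a peak.

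The strongest sites are shown as sequence, so that the marked transcripts can be seen beside their values. For each of the 10 genes with the highest paired fold enrichment, the GGAC nearest the replicate 1 summit was read from hg38 within the interval covered by both replicates. Each line gives 25 bases of the gene's strand, 5′ to 3′, with GGAC in capitals. DCP1A had 0 GGAC in its shared interval of 255 bases and has no line.
PAN3, chr13:28292534-28292558, plus strand: aaagcacgcaGGACatggctaaaga
SMG8, chr17:59213221-59213245, plus strand: attgtcatcaGGACtagagctgaag
UPF2, chr10:12029420-12029444, minus strand: aaaatgctccGGACagccgaccaga
BTG1, chr12:92144320-92144344, minus strand: acagcggattGGACtgagcagtcag
SMG6, chr17:2299448-2299472, minus strand: cgcgcctttgGGACctcggcttttg
UPF3B, chrX:119841092-119841116, minus strand: ttccagaaagGGACaaattaaagga
BTG2, chr1:203307296-203307320, plus strand: gcattggggaGGACggctccatctg
SMG1, chr16:18809391-18809415, minus strand: gaatcccgcaGGACagctgcactca
UPF1, chr19:18867325-18867349, plus strand: gttctccgctGGACtcagaagccaa
These are letter matches near a summit and not mapped methylation sites. The PAN3, SMG1 and UPF1 sequences lie in the 3′ UTR and the other 6 lie in the CDS. The adenosine of GGAC lay 7 and 10 nt downstream of the replicate 1 and replicate 2 summits in PAN3, 2 and 24 nt downstream in SMG1, and 10 and 57 nt downstream in BTG2. In BTG1 it lay at -25 and -30 nt, the minus sign standing for upstream of the summit. In SMG8 it lay farther off, at -106 and -146 nt, and in UPF2 at -190 and -189 nt. In SMG6, where a wide replicate 1 peak met a narrower one, it lay 974 nt downstream of the one summit and at -111 nt from the other.

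Exonic peaks were found in most of these genes. Replicate 1 had one in 29 of 38 genes, against 40.3% of all protein-coding genes, and replicate 2 had one in 26 of 38, against 32.6%. In both lists a peak was found in 26 of 38 genes, or 68.4% (95% Wilson interval 52.5% to 80.9%), against 31.8% of all protein-coding genes. Long transcripts have more room for a peak, and the members were longer, with a median exonic length of 6121 nt against 4418 nt. Among protein-coding genes weighted to the same exonic lengths, 39.1% had a peak in both lists. The share of members lay above both values, and the lower end of its interval did too; the interval covers counting error only, and expression was not matched. This did not hold for strong peaks: with a fold enrichment of 5 or more required in both lists, 8 of 38 members remained (21.1%, interval 11.1% to 36.3%), against 23.3% of genes of like length and 18.5% of all protein-coding genes. The peak need not be the same in the 2 lists. DDX6 counted through a 5′ UTR peak in replicate 1 (5.35) and a 3′ UTR peak in replicate 2 (5.39).

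**Figure D1:**
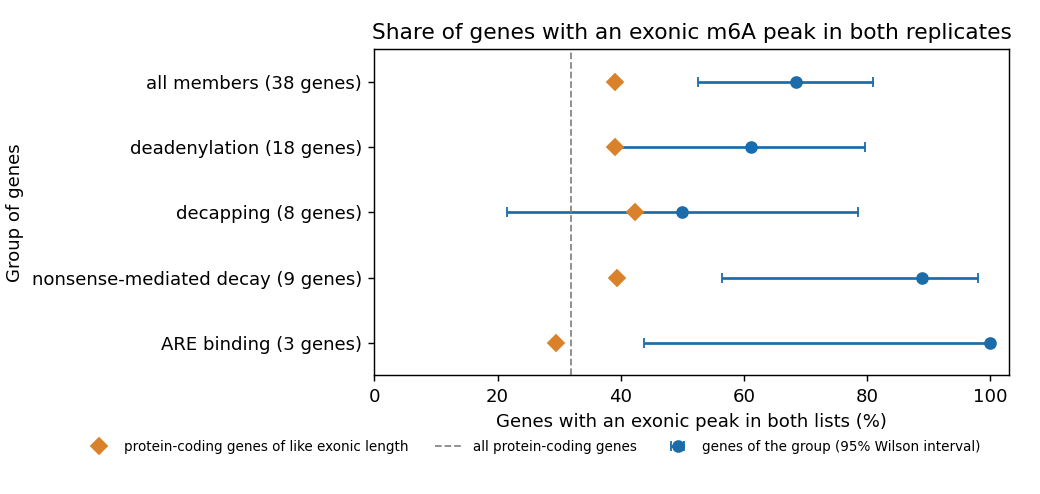
Share of genes with an exonic m6A peak in both replicates, in percent, for all 38 genes and for each role. Points with bars are the group and its 95% Wilson interval, diamonds are protein-coding genes of like exonic length, and the dashed line is all protein-coding genes (31.8%); the NMD and ARE-binding groups sit farthest to the right of their diamonds, while the decapping interval spans its own.

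The groups differed in how many of their genes carried a peak in both lists. NMD had 8 of 9 genes (88.9%, interval 56.5% to 98.01%, against 39.4% at like length) and the ZFP36 family had 3 of 3 (interval 43.9% to 100%, against 29.5%). Deadenylation had 11 of 18 (61.1%, interval 38.6% to 79.7%), so that its interval reached the 39.1% of genes of like length. Decapping and 5′ decay had 4 of 8 (50%, interval 21.5% to 78.5%, against 42.2%), an interval that includes the value at like length. The intervals of the 4 groups overlap one another, and differences between groups were not tested.

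Within deadenylation the genes are given by complex, and with 1 to 6 genes each the complexes were not compared by a test. All 4 BTG and TOB genes, antiproliferative adaptors that bring CCR4-NOT to RNA-binding proteins, carried a peak in both lists (interval 51.0% to 100%, against 28.5% at like length). So did PAN2 and PAN3, the catalytic and the adaptor subunit of the complex that starts tail shortening, and CNOT4, the E3 ubiquitin ligase associated with CCR4-NOT. Of the 6 genes for the CCR4-NOT scaffold and its modules, 2 (CNOT2 and CNOT9) had one in both lists, or 33.3% against 39.8% at like length. Of the 4 catalytic deadenylases of CCR4-NOT, CNOT6 and CNOT8 had one, or 50% against 42.3%, whereas their close relatives CNOT6L and CNOT7 did not. Both of these shares are near those of genes of like length. The paired catalytic genes share 73.9% (CNOT6 and CNOT6L) and 71.2% (CNOT7 and CNOT8) of their aligned coding bases.

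PAN3 carried the strongest peak of the list in replicate 1 and by the geometric mean of the replicates (chr13:28292327-28292805 in replicate 1). In replicate 2 the peaks of SMG8 (11.01), UPF2 (10.7) and UPF3B (8.72) were stronger than that of PAN3. The fold enrichment of the PAN3 peak was 23.1 in replicate 1 and 7.39 in replicate 2, with summits 19 and 16 nt past the first base of the stop codon, in the last of 19 exons. The geometric mean of the pair stood at percentile 97.02 of all paired exonic peaks of protein-coding genes. The replicates placed it at nearly the same base but differed in its size: the log2 ratio of replicate 1 to replicate 2 was 1.64, at percentile 98.3 of those pairs. A further PAN3 peak in the 3′ UTR had 9.83 and 3.99, at 1031 and 1264 nt past the stop codon.

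BTG1 and BTG2 had their strongest paired peak in the coding part of the second and last exon. BTG1 had fold enrichments of 12.5 and 6.59 (chr12:92143991-92144499), at -225 and -220 nt from the stop codon, and BTG2 had 10.1 and 3.34 (chr1:203307046-203307470), at -138 and -185 nt. Both were higher in replicate 1. BTG2 had another peak of 12.1 in its first exon in replicate 1 alone. TOB2 had 5.02 and 3.90 and TOB1 had 2.89 and 3.05, also in the CDS of the last exon. The strongest paired peak of all 4 adaptors thus lay in the CDS of the last of 2 exons. In TOB1 and TOB2 that exon holds the whole CDS, and the 2 TOB1 summits lay 464 bp apart. The coding sequences share only 69.8% (BTG1 and BTG2) and 69.6% (TOB1 and TOB2) of aligned bases. Weaker pairs lay in the 5′ UTR of exon 1 in BTG1 (2.41 and 1.57) and TOB2 (2.53 and 1.57). TOB1 had a 5′ UTR peak of 3.52 in replicate 1 alone.

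The CCR4-NOT genes with a peak in both lists had fold enrichments below the strongest peaks of PAN3 and BTG1 in each replicate. CNOT9, a module that docks RNA-binding proteins, had 5.61 and 3.99 in the stop codon window, defined as the bases up to 200 nt before or after the stop codon. The deadenylases CNOT6 (4.92 and 4.13) and CNOT8 (4.90 and 3.33) were also marked there. CNOT2, part of the NOT module, had 6.17 and 3.27 in the 3′ UTR, at 910 and 934 nt past the stop codon. CNOT4 had 4.41 and 5.02 in the CDS, in internal exon 10 of 498 nt, and was 1 of the genes whose peak was higher in replicate 2. PAN2, with 4.73 and 5.42 at the start of its CDS in exon 2, was another.

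Among the decapping genes, 4 activators carried peaks in both lists, whereas the enzyme DCP2, its scaffold EDC4 and both exonucleases had none. DCP1A, the activating partner of DCP2, had 7.30 and 7.10 at 76 and 63 nt past the stop codon (chr3:53287393-53287655), the closest match between replicates among the 10 strongest genes. It had a second peak of 6.68 and 2.97 in the CDS, in exon 7 of 759 nt. Its paralogue DCP1B had 6.45 and 3.55 in its own exon 7, of 873 nt, so both genes carried a peak in the long internal exon. DDX6, an RNA helicase of decapping complexes, had 5.35 and 4.75 in the 5′ UTR and 4.42 and 5.39 in the 3′ UTR. EDC3, a scaffold that enhances decapping, had 8.44 and 2.89, with summits 180 bp apart in exon 9.

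By geometric mean, NMD genes held the next strongest peaks of the list after PAN3, and in replicate 2 SMG8 and UPF2 stood above PAN3. SMG8, a subunit that restrains the SMG1 kinase, had 13.7 and 11.01 (chr17:59212963-59213567) in exon 4 of 873 nt and a further peak of 9.98 and 6.78 in exon 2 of 1911 nt. UPF2, which bridges UPF1 and the UPF3 proteins, had 13.2 and 10.7 (chr10:12028674-12029562) in exon 2 of 780 nt, with summits 1 base apart. UPF2 also had 9.82 and 5.26 in exon 1 and 7.67 and 4.40 in the 3′ UTR, so 3 separate sites were found in both lists.

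Neither of these summits had a GGAC within 50 nt, and the 61 bases centred on each replicate 1 summit are shown for that reason, with DRACH matches in capitals (these 2 windows were chosen after their values were seen). The UPF2 window, chr10:12029212-12029272, held 2 matches and the SMG8 window, chr17:59213309-59213369, held 1. Both lie wholly in the CDS.
UPF2, minus strand: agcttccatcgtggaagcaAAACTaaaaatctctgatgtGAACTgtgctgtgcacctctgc
SMG8, plus strand: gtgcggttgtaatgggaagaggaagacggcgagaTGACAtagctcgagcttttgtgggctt

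SMG6, the endonuclease of NMD, was marked in its second exon, of 1759 nt. In replicate 1 a single peak of 1621 bp (chr17:2299034-2300654) had a fold enrichment of 9.29, whereas replicate 2 had 2 peaks within it, of 5.88 and 5.68. The paired summits were 1085 bp apart because the wide peak was matched to the larger of the 2, and the replicate 1 summit lay next to the other. SMG5, which recruits deadenylation and decapping, had 5.48 and 3.78 in the 5′ UTR and 5.02 and 3.0 in exon 12 of 600 nt.

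UPF1, the RNA helicase at the centre of NMD, had 6.68 and 4.72 in its 3′ UTR (chr19:18866625-18868117), at 809 and 828 nt past the stop codon. It also had 6.44 and 3.69 in exon 1, at the start of the CDS. SMG1, the kinase that phosphorylates UPF1, had 6.65 and 4.75 (chr16:18808911-18809606), at 166 and 144 nt past the stop codon in the last of 63 exons. Values for SMG1 are uncertain because pseudogene copies of it (SMG1P1 to SMG1P7) lie on the same chromosome and could take or give reads; none of them carried an exonic peak in either list.

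UPF3B, a bridge between UPF2 and the exon junction complex encoded on chromosome X, was the member most shifted towards replicate 2. Its peak in exon 7 (chrX:119840989-119841264) had 4.73 in replicate 1 and 8.72 in replicate 2, a log2 ratio of -0.88 at percentile 1.37 of all pairs. A peak in exon 10 went the other way, with 5.70 and 2.97. Its paralogue UPF3A had 2.51 and 2.92 in the matching exon 7, below UPF3B in both replicates. In its exon 9, which matches exon 10 of UPF3B, it had 3.24 and 3.86, below UPF3B in replicate 1 and above it in replicate 2. UPF3A had another peak of 4.68 and 2.80 at the stop codon. Its pseudogene copy UPF3AP2 carried 1 exonic peak in replicate 1, so reads of UPF3A could likewise be split between copies. Exon 9 of UPF3A and exon 10 of UPF3B are both 295 nt long, and the 2 coding sequences share 67.2% of 1308 aligned bases. This comparison of paralogues was made after the values were seen.

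The peaks found in both lists in the ZFP36 family were wide and of low fold enrichment. ZFP36 (tristetraprolin) had 2.94 and 2.59, ZFP36L1 had 2.79 and 1.79, and ZFP36L2 had 3.04 and 1.86. The geometric means stood at percentiles 6.27, 2.09 and 2.95 of all pairs. The peaks were wide, at 1822 and 1729 bp in ZFP36L2, 1080 and 1006 bp in ZFP36L1 and 1179 and 936 bp in ZFP36. Over the whole list 11.5% and 9.52% of peaks were at least 1000 bp wide, against 9.49% and 10.3% in other genes. ZFP36 had a narrower peak of 7.97 at its 5′ end in replicate 1 alone.

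**Figure D2:**
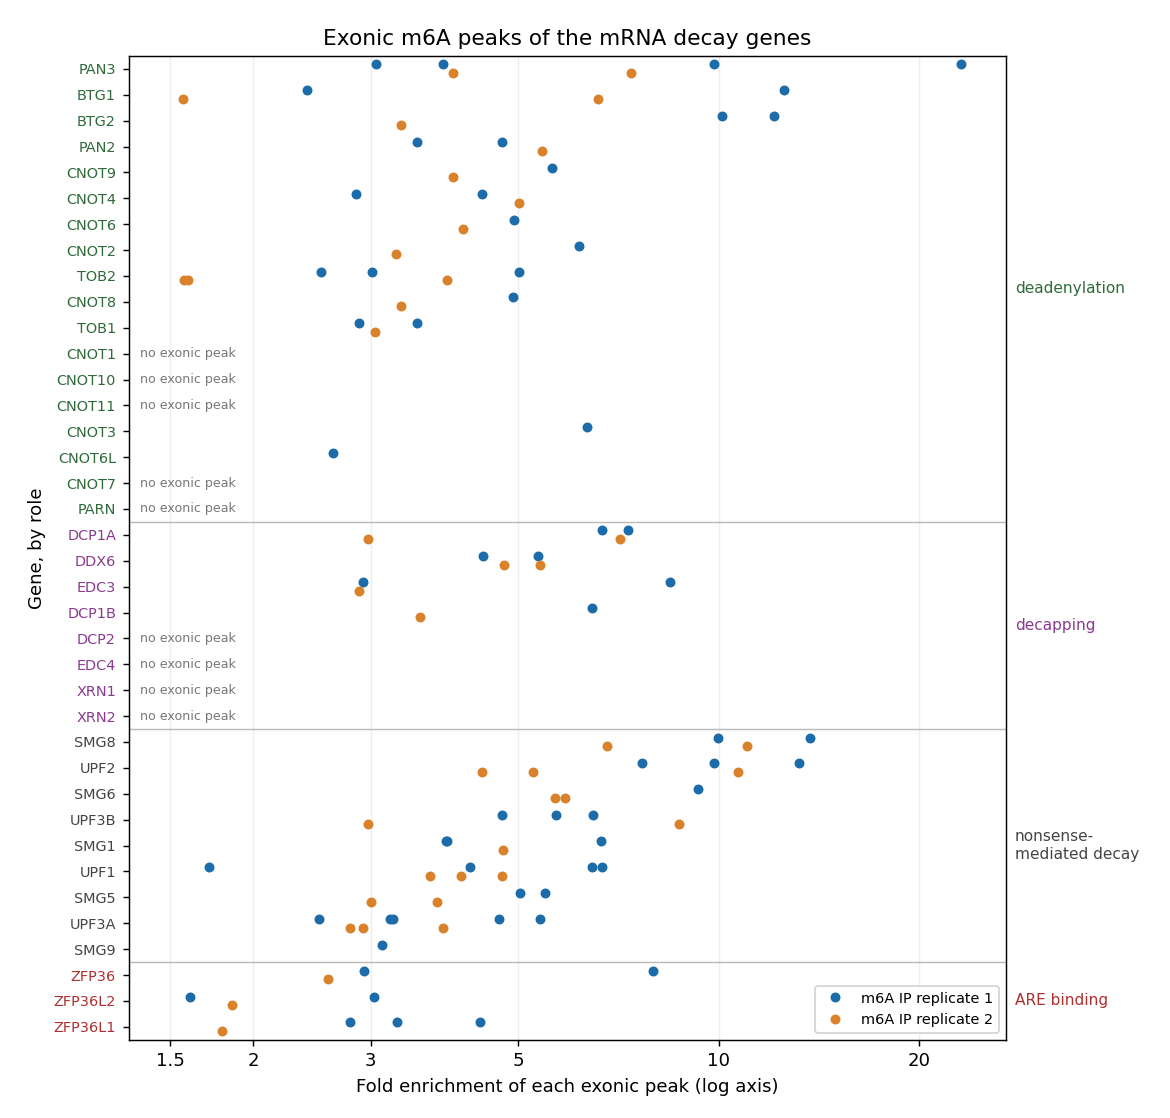
Fold enrichment of every exonic peak, on a log axis, with 1 line per gene grouped by role and coloured by replicate (61 peaks in replicate 1 and 42 in replicate 2). PAN3 has the highest point at 23.1, the ZFP36 peaks found in both lists lie between 1.79 and 3.04, with a replicate 1 peak of ZFP36 at 7.97, and 9 genes have no exonic peak.

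The genes without peaks were examined as closely. No exonic peak was found in either list for 9 genes. These were CNOT1, the scaffold on which CCR4-NOT assembles; CNOT10 and CNOT11, which form a module at its N-terminus; CNOT7, a catalytic deadenylase; PARN, a poly(A)-specific ribonuclease; DCP2, the decapping enzyme; EDC4, the scaffold of the decapping complex; and XRN1 and XRN2, the cytoplasmic and nuclear 5′ exonucleases. They were not short: CNOT1 has 10851 nt of exons, XRN1 11982, DCP2 11371 and PARN 14103. A peak in replicate 1 alone was found for CNOT3 (6.35), a subunit of the NOT module, CNOT6L (2.63) and SMG9 (3.13), the partner of SMG8. The CNOT3 peak lay on an exon of transcripts other than the one used for positions.

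The marked and unmarked genes differed in exon structure, a property read after the peaks were known. The longest stretch of CDS within 1 exon had a median of 450 nt in the 26 genes with a peak in both lists (range 180 to 1759) and 203 nt in the 9 without one (range 158 to 514). It was at least 400 nt in 14 of 26 (53.8%) and 2 of 9 (22.2%). Over all protein-coding genes it was that long in 59.6% of genes with a peak in both lists and 34.5% of genes with none. Over all protein-coding genes this median stretch was 517 nt in genes with a peak in both lists and 274 nt in genes with none, the same order as in the members. The median number of exons was 10 in the marked and 25 in the unmarked members, but 9 and 7 over all protein-coding genes, the opposite order. CNOT11 and EDC4 are the exceptions among the unmarked genes, with stretches of 514 and 434 nt. Among the marked genes, CNOT9 (180 nt), CNOT2 (183 nt), CNOT8 (194 nt) and DDX6 (200 nt) had stretches below the unmarked median. GGAC occurred at a median of 3.68 per kb of transcript in the marked genes (range 1.73 to 7.15) and 2.32 per kb in the unmarked genes (range 1.45 to 4.62). The ranges overlap widely, and this density was not computed over all protein-coding genes.

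Fold enrichment was not high for the list as a whole. The median was 4.90 over 61 exonic peaks in replicate 1 (quartiles 3.21 and 6.68) and 3.95 over 42 in replicate 2 (2.98 and 5.36). Exonic peaks of other protein-coding genes had medians of 5.22 and 4.72, inside the quartiles of the list. By role the medians in replicates 1 and 2 were 4.73 and 3.90 for deadenylation, 6.45 and 4.15 for decapping, 5.43 and 4.56 for NMD, and 3.04 and 1.86 for the ZFP36 family.

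Peaks were well shared between replicates. Of the replicate 1 peaks 39 of 61 (63.9%, interval 51.4% to 74.8%) overlapped a replicate 2 peak, against 60.6% in other genes. All 42 replicate 2 peaks overlapped one of replicate 1 (interval 91.6% to 100%), against 95.9%. Peaks found in replicate 1 alone were weaker, with a median fold enrichment of 3.52 against 5.61 for shared ones. Values were higher in replicate 1 in 32 of 39 pairs of peaks (82.1%), as in 80.6% of pairs in other genes, and the median log2 ratio was 0.56 against 0.44. Fold enrichment is set against each library's own background, so its size in the 2 lists is not a direct measure of how much m6A each held. Across the 39 pairs, which share their 2 libraries, Pearson's r of log2 fold enrichment was 0.71 and Spearman's rho 0.61, given as a description.

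**Figure D3:**
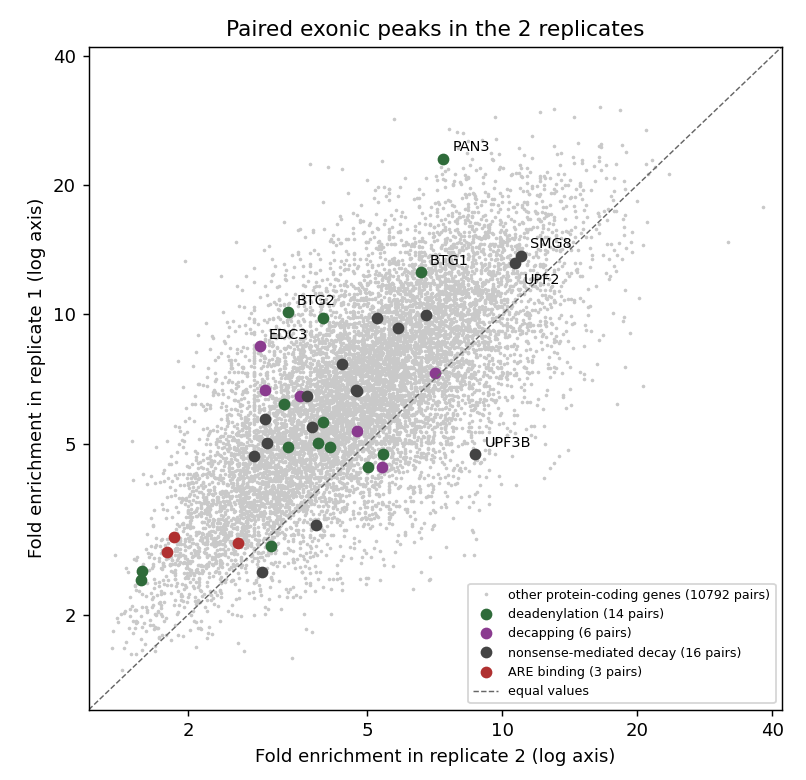
Fold enrichment in replicate 1 (vertical) against replicate 2 (horizontal) for pairs of exonic peaks that are each other's largest overlap, both on log axes, with decay genes coloured by role over the pairs of other protein-coding genes in grey. Most points lie above the dashed line of equal values, PAN3, BTG2 and EDC3 lie far above it, and UPF3B lies below it.

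Summits were placed along the transcripts next. On the transcript with the longest CDS, 13 of 57 summits in replicate 1 (22.8%, interval 13.8% to 35.2%) and 11 of 42 in replicate 2 (26.2%, interval 15.3% to 41.1%) fell within 200 nt of the stop codon. That window makes up 10.6% and 10.8% of the length of the same transcripts, below both intervals, and other genes had 24.5% and 27.1% there. The intervals treat summits as independent, although 1 gene can hold several. The CDS outside the window held 50.9% and 47.6%, and the 3′ UTR beyond it held 12.3% and 16.7% although it makes up 36.6% and 36.3% of the length. The 4 remaining summits of replicate 1 were on exons of other transcripts.

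**Figure D4:**
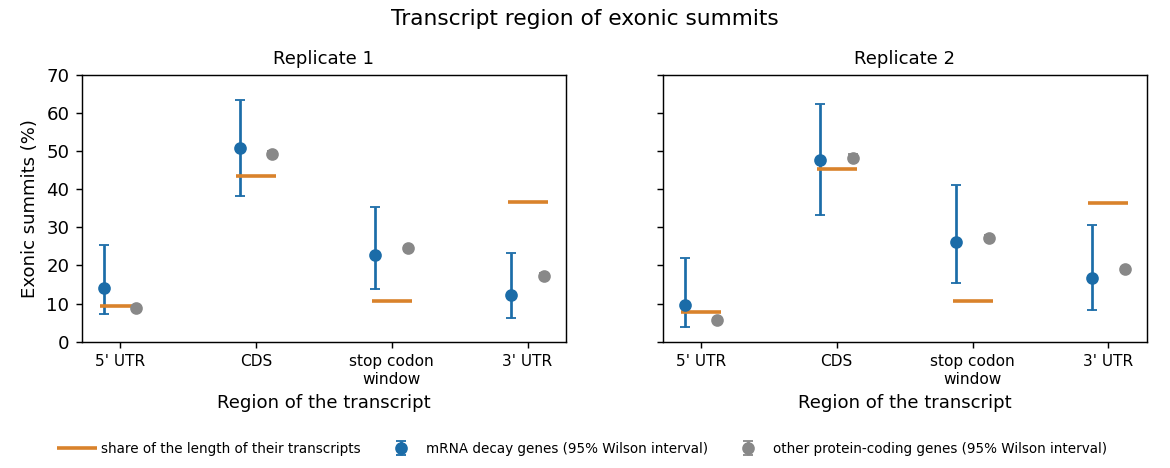
Percent of exonic summits in each region of the transcript, by replicate, for the decay genes and for other protein-coding genes, with 95% Wilson intervals (those of the other genes are smaller than the points). The bars give the share of transcript length; the stop codon window is above its bar and the 3′ UTR below it in both replicates.

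The roles differed in where the summits lay. Deadenylation genes had 8 of 22 summits (36.4%) and 5 of 15 (33.3%) in the stop codon window, and NMD genes had 3 of 22 (13.6%) and 3 of 18 (16.7%). NMD summits were instead mostly in the CDS, with 15 of 22 (68.2%) and 11 of 18 (61.1%), but the CDS also makes up 60.0% and 62.5% of their transcripts. For the stop codon window and for the CDS, the Wilson intervals of deadenylation and NMD overlap in both replicates, and the difference was not tested. The last exon held 59.1% and 73.3% of deadenylation summits and 18.2% and 27.8% of NMD summits, with 50.7% and 59.6% in other protein-coding genes. The values of the other genes lie inside the deadenylation intervals (38.7% to 76.7% and 48.0% to 89.1%). They lie above the NMD intervals (7.31% to 38.5% and 12.5% to 50.9%). For the last exon the deadenylation and NMD intervals do not overlap in replicate 1 but do in replicate 2. Exon numbers differ, from 2 in the BTG and TOB genes to 63 in SMG1. The share of transcript length in the last exon was not computed, and the last-exon difference was not tested. Of summits in internal exons, 11 of 23 and 11 of 16 were in exons of at least 400 nt, against 51.6% and 75.5% in other genes.

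**Figure D5:**
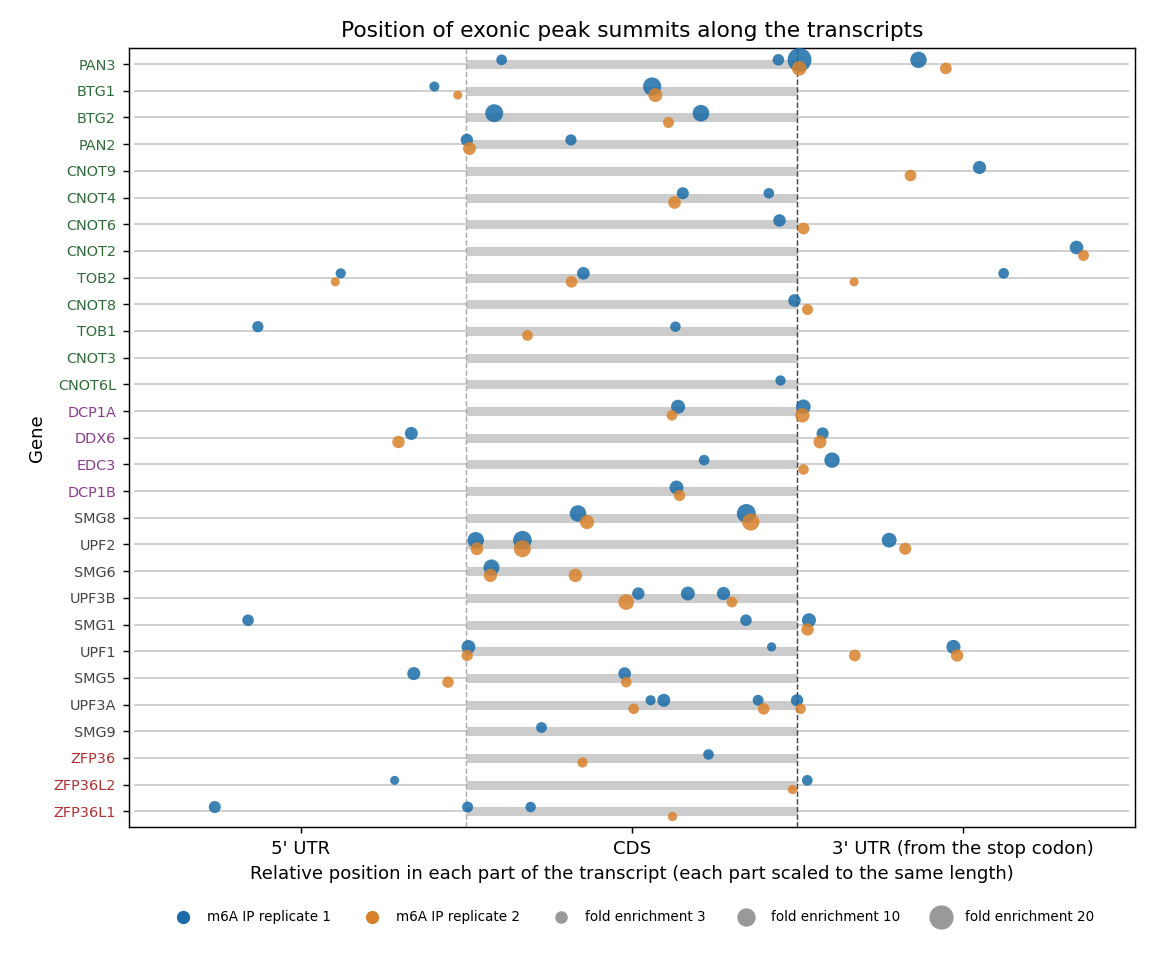
Position of each exonic summit along the transcript of its gene, with the 5′ UTR, CDS (thick grey) and 3′ UTR each scaled to the same length, coloured by replicate and sized by fold enrichment. The largest points of PAN3, CNOT6, CNOT8, DCP1A and SMG1 lie at the stop codon (dashed line), while those of SMG8, UPF2, SMG6 and UPF3B lie inside the CDS.

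GGAC was found within 50 nt of the summit on the gene's strand for 29 of 61 summits in replicate 1 (47.5%, interval 35.5% to 59.8%) and 24 of 42 in replicate 2 (57.1%, interval 42.2% to 70.9%). Other genes had 49.8% and 51.8%. Its reverse complement GTCC, counted as a control of base composition, was found at 26.2% and 28.6%. Over all 272902 windows of the same width in the members' own exons, 23.6% held GGAC and 21.4% held GTCC. GGAC was therefore more frequent at summits than over the exons of all 38 members, while GTCC differed less. These exons include those of the 9 members without an exonic peak, so they are not matched to the exons that hold the summits. DRACH was found at 83.6% and 92.9%. Decapping genes had GGAC at 0 of 7 summits (interval up to 35.4%) and 2 of 6, whereas NMD genes had it at 13 of 24 and 11 of 18.

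Other genes of mRNA decay, 61 of them outside the list, were counted in the same way. A peak in both lists was found in 26 of 61 (42.6%), against 38.01% at like length. In the exosome and SKI complexes, which degrade from the 3′ end, 5 of 18 were marked (27.8%, against 40.8% at like length), with the cytoplasmic nuclease DIS3L (12.3 and 8.51) and the core subunit EXOSC6 (10.97 and 8.46) the strongest. Of LSM ring and scavenger decapping genes 2 of 13 were marked (15.4% against 29.3%), the RNA-decapping hydrolase NUDT16 (6.66 and 3.42) and the eIF4E transporter EIF4ENIF1 (4.53 and 2.80). A set of other deadenylases, poly(A)-binding factors and the terminal uridylyltransferases TUT4 and TUT7 had 6 of 9 (66.7% against 41.8%). It was led by TUT4 (9.49 and 11.4) and the deadenylase NOCT (10.0 and 6.91). Other NMD and exon junction genes had 6 of 11 (54.5% against 35.4%), led by GSPT1 (16.5 and 7.88), the release factor eRF3a, and the helicase DHX34 (9.74 and 6.24). Further 3′ UTR-binding decay factors had 7 of 10 (70% against 43.9%), led by MEX3A (7.81 and 9.50) and CPEB4 (7.02 and 8.16). The sets were not tested against each other.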

How the data were processed

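Data came from 4 samples of OE-19 cells, 2 m6A IP and 2 input, grouped by their labels; the inputs entered no comparison. The labels list fastp, HISAT2 and MACS2 and describe UV-fixed, lysed cells. The study's methods instead name TopHat2 and MACS2 with default settings and DNase-treated, fragmented total RNA. Whether the input was the control in peak calling is not given in the sources used here. The authors deposited 1 peak list per IP sample on hg38, with fold enrichment (a ratio to local background), −log10 p and −log10 q, and an integer score derived from −log10 q, which was not used. No read numbers are given, so depth is unknown.

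Summits were assigned to GENCODE version 44 exons, protein-coding genes first, since the lists carry no strand. Regions used the transcript with the longest complete CDS. Genes of like length were weighted over 20 bins of exonic length. Overlap meant at least 1 bp, and paired peaks were each other's largest overlap. Intervals are 95% Wilson intervals and cover counting error only, with peaks of the same gene treated as independent. Python 3.11.15, pandas 2.3.3, scipy 1.17.1 and pysam 0.24.0 were used, and assignment, sharing and weighting were tested on simulated data. No test between lists was possible with 1 condition. Named in full were the 10 members with the largest geometric mean of a pair and all members lacking a peak in a list; in each further set of decay genes the top 2 were named. Members and lists were chosen with earlier results of these data known. Alternatives are given in the closing section.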

Additional observations from a re-analysis of the deposited data

Results flagged for a closer look

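Peaks whose summits lay in introns of the member genes fell outside the exonic measurements. There were 7 in replicate 1, in 7 genes, and 5 in replicate 2, in 5 genes, and 4 of each overlapped a peak of the other list. The 4 shared ones were in DDX6 (8.75 and 3.74), UPF1 (4.78 and 3.63), UPF2 (4.18 and 9.82) and XRN1 (5.48 and 5.37). XRN1 had no exonic peak, so this was its only signal in either list. No control list was analysed here, and the strand of these peaks is unknown.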

How the results depend on the processing

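The count of 26 members with a peak in both lists stayed between 22 and 29 under all alternatives but a fold enrichment of 5 or more, which left 8 (21.1%). That is below the 23.3% of genes of like length, so the excess over them was lost, and near the 18.5% of all coding genes. Under that minimum the mean of the replicates' median fold enrichments was 6.64, from 4.42, sharing was 48.4%, from 82.0%, and the stop codon window held 16.95%, from 24.5%. The window share was 15.7% with 100 nt, 37.5% with 400 nt and 21.4% from peak midpoints. GGAC was found at 30.6% within 25 nt, at 70.9% within 100 nt, against 52.3%, and DRACH at 88.2%. Leaving out a replicate gave counts of 26 to 29, medians of 3.95 to 4.90, window shares of 22.8% to 26.2% and GGAC shares of 47.5% to 57.1%; sharing has no value with 1 list. A fold minimum raises a median by construction, and windows hold more when wider. The lowest other count, 22 (57.9%, against 35.9% at like length), came with q of 1e-05 or less. Stricter q values, lists of equal length and leaving out ambiguous summits moved the medians and shares by less than 1 SD of the 2 replicates. So did other overlaps and the MANE or canonical transcript. For sharing that SD is wide, at 25.5 points, because it comes from 63.9% and 100%, shares of lists of unlike length. With summits within 100 bp required, sharing was 66.3%, at 54.1% in replicate 1 and 78.6% in replicate 2. With 10 length bins the share at like length was 38.9%, from 39.1%. No paired analysis was possible because no result came from a test. Unknown depth limits what an absent peak means.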
